A study of Homo sapiens with 6 samples.

Results

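The replication-dependent histone genes were taken as the genes of the count table whose symbol starts with HIST1H, HIST2H, HIST3H or HIST4H, which gave 89 of 56303 genes. By cluster they were 67 HIST1, 17 HIST2, 4 HIST3 genes and 1 HIST4 gene, and by the histone they encode 8 H1, 22 H2A, 26 H2B, 17 H3 and 16 H4 genes. Pseudogenes, by their symbol or GENCODE type, made up 18 of the 89. The libraries came from SW480, an established human colorectal adenocarcinoma line, infected with lentivirus that carried either a nonsilencing hairpin (shCtrl, genotype labelled WT) or a hairpin against MORC2 (shMORC2, genotype labelled MORC2 knockdown). Both groups shared the viral infection and puromycin selection of stable clonal lines, each group had 3 libraries, and 1 hairpin stood for the knockdown, so that a difference between the hairpins and a difference between the selected lines cannot be told apart. MORC2 is a nuclear ATPase of the microrchidia family. The study describes the libraries of a group as replicate experiments, and no source used here says whether the lines were infected separately, so p-values measure the spread between these libraries, which need not cover that between separately made lines.

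Canonical histone genes supply the proteins that wrap new DNA into nucleosomes, and their transcription and mRNA stability peak in S phase. H2A, H2B, H3 and H4 form the nucleosome core, and H1 binds the linker DNA between cores. Unlike other mRNAs, the canonical histone transcripts have no poly(A) tail. They end just after a conserved stem-loop that is bound by SLBP and cut with the help of the U7 small nuclear ribonucleoprotein. Many of the same genes also give some transcripts that run past the stem-loop to a polyadenylation signal. The libraries were made with a stranded mRNA kit, so a histone count here belongs to the RNA that the kit captured, and fewer cells in S phase cannot be told apart from less histone RNA per cell.

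The stem-loop is the sequence that all of these genes share, and examples from genes with large and small differences between the groups are shown first. A stem-loop match was found within 150 bases after the stop codon for all 70 histone genes that matched a coding gene in GENCODE v44 and were not named as pseudogenes. Over all 20033 protein-coding genes, these histone genes included, there were 73 matches (0.364%). It started 23 to 68 bases after the stop codon. HIST2H3PS2, a pseudogene by its symbol that GENCODE lists as the coding gene H3-7, held a match too and is not among the 70. Capitals mark the 16 bases of the stem-loop in the GRCh38 sequence, written 5′ to 3′ on the strand of the gene with 5 bases on either side.
HIST3H2A (chr1:228457364-228457389, minus strand): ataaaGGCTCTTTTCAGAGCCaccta
HIST1H1B (chr6:27866792-27866817, minus strand): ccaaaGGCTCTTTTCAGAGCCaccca
HIST2H2AB (chr1:149887468-149887493, minus strand): ccaaaGGCTCTTTTAAGAGCCaccaa
HIST1H3I (chr6:27871845-27871870, minus strand): caaaaGGCTCTTTTCAGAGCCcctca
HIST1H4E (chr6:26204996-26205021, plus strand): tcaaaGGCCCTTTTCAGGGCCgccca
HIST1H3E (chr6:26225591-26225616, plus strand): ccaaaGGCTCTTCTCAGAGCCaacca
HIST1H1C (chr6:26055739-26055764, minus strand): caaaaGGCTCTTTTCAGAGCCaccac
HIST1H2BD (chr6:26158582-26158607, plus strand): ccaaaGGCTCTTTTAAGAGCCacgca
The 70 stem-loops fell into 10 distinct sequences. The form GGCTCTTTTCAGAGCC, shared by HIST3H2A, HIST1H1B, HIST1H3I and HIST1H1C, was found in 40 of them, and 10 of the 15 H4 genes carried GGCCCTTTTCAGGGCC instead. Genes with the same stem-loop were therefore found both among those that were lower in shMORC2 and among those that were not.

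The targeted gene was checked first. MORC2 was measured at 46.1, 46.4 and 48.8 CPM (counts divided by the TMM-adjusted library size and set to a common total) in shCtrl replicates 1, 2 and 3 and at 35.03, 29.3 and 27.2 CPM in shMORC2, with no overlap (log2 fold change -0.63 with an SE of 0.0952, edgeR adjusted p 0.000216). Library totals ran from 42092664 to 43434425 counts. Of the defining colon epithelial markers, KRT8, KRT18, KRT19, VIL1 and EPCAM were abundant, with EPCAM the lowest of them at 475 to 539.6 CPM, while CDX1 was at or near 0. The list of 10 such markers also held KRT20, CDX2, CDH17 and CEACAM5, whose levels are not given singly here. It summed to 20014.5 to 26034.6 CPM in shCtrl and 19045.9 to 25886.3 CPM in shMORC2. The leukocyte genes PTPRC and CD3E did not exceed 0.141 CPM in any library. Not all markers of other cell types were that low, since the list of 10 summed to 28.2 to 30.2 CPM in shCtrl and 33.7 to 35.6 CPM in shMORC2. 1 control library stood apart for RNA without a poly(A) tail, since 7SK and its copies summed to 282 CPM in shCtrl replicate 3 against 17.4 to 18.4 CPM in the other shCtrl libraries and 8.89 to 9.25 CPM in shMORC2.

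Histone genes held a small share of the reads. They received 6223 to 6565 counts in a shCtrl library and 4322 to 4919 counts in a shMORC2 library, or 0.0148% to 0.0154% and 0.0102% to 0.0114% of all counts. A floor of 3 counts corresponds to 0.0676 to 0.0729 CPM, and 10 of the 89 genes had no count in any library. Both reads of a pair seem to have been counted, because 73.9% of the histone counts from 1 to 20 were even, so floors and counting intervals cover counting error only and are too narrow. The filter on low counts kept 46 histone genes for testing, of which 30 passed it on the counts of both groups, 15 on those of shCtrl alone and 1, HIST1H2BE, on those of shMORC2 alone. The 15 genes that passed on shCtrl alone had to be lower in shMORC2 to be so placed. The counts of calls over all tested histone genes and by annotated 3′ end are therefore also given for genes that passed on both groups. Calls and medians by histone type and by cluster include the genes that passed on shCtrl alone. Of the tested genes these were 1 of 4 H1, 6 of 15 H2A, 4 of 14 H2B, 2 of 7 H3 and 2 of 6 H4 genes.

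The summed level of all 89 genes was 149.8, 151.6 and 151.3 CPM in the shCtrl libraries and 106.7, 103.8 and 115.5 CPM in the shMORC2 libraries. Every shMORC2 library lay below every shCtrl library, and the mean of the shMORC2 sums was 72.0% of that of the shCtrl sums. A single gene, HIST3H2A, made up 30.9% of the sum in shCtrl and 49.8% of the difference between the groups. Without it the log2 ratio of the sums was -0.33 in place of -0.47. The plot of summed levels shows how unevenly the histone types took part: H2A and the H1 genes other than HIST1H1C were lower in shMORC2, whereas HIST1H1C and the H2B genes together were at similar levels.

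**Figure D1:**
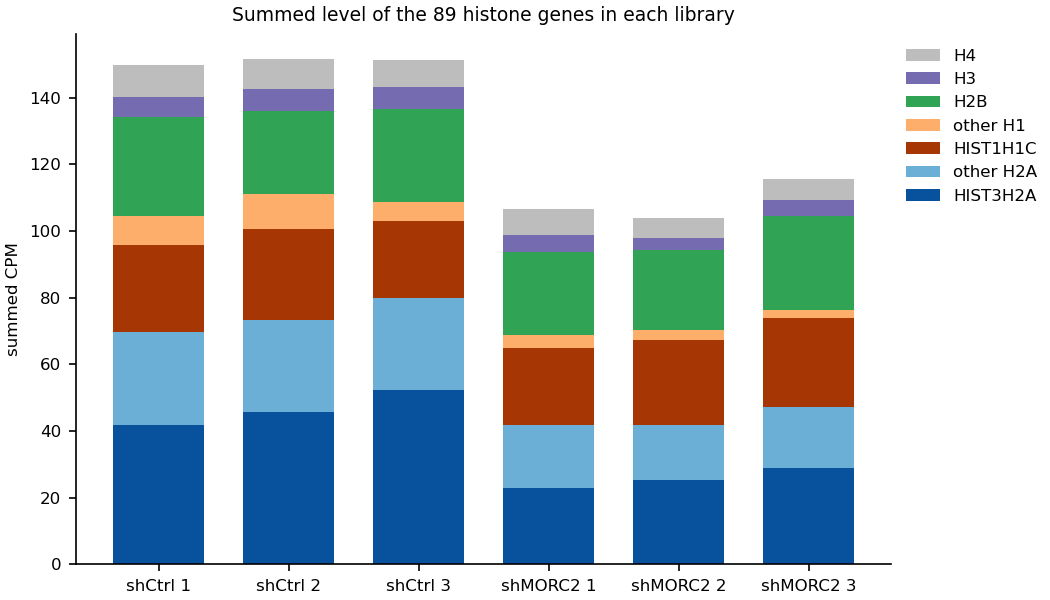
Stacked bars give the summed CPM of the 89 histone genes in each of the 6 libraries, divided into HIST3H2A, other H2A, HIST1H1C, other H1, H2B, H3 and H4. The shCtrl bars end near 150 CPM and the shMORC2 bars between 103.8 and 115.5 CPM, with HIST3H2A at 41.9 to 52.3 CPM in shCtrl and 22.7 to 28.8 CPM in shMORC2.

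At an adjusted p under 0.05 (edgeR quasi-likelihood test, Benjamini-Hochberg over all 21005 genes tested), 23 of the 46 tested histone genes were called lower in shMORC2, 1 was called higher and 22 were not called. Over all tested genes 19.6% were called lower and 19.9% higher. The shMORC2 values lay entirely below the shCtrl values for 26 histone genes and entirely above for 1, and each kind of separation was seen for 25.1% of all tested genes (below) and 25.1% (above). Among the 30 genes that passed the filter on both groups, 11 were called lower and 1 higher. The median log2 fold change was -0.82 over the 46 and -0.35 over the 30, beside -0.0056 over all tested genes. With no filter at all the direction can still be read from the mean CPM: 66 of the 79 histone genes with any count had a lower mean in shMORC2 and 13 a higher one, while 51.9% of the 36613 genes with a count had a lower mean. The plot of fold changes gives the interval of each gene.

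**Figure D2:**
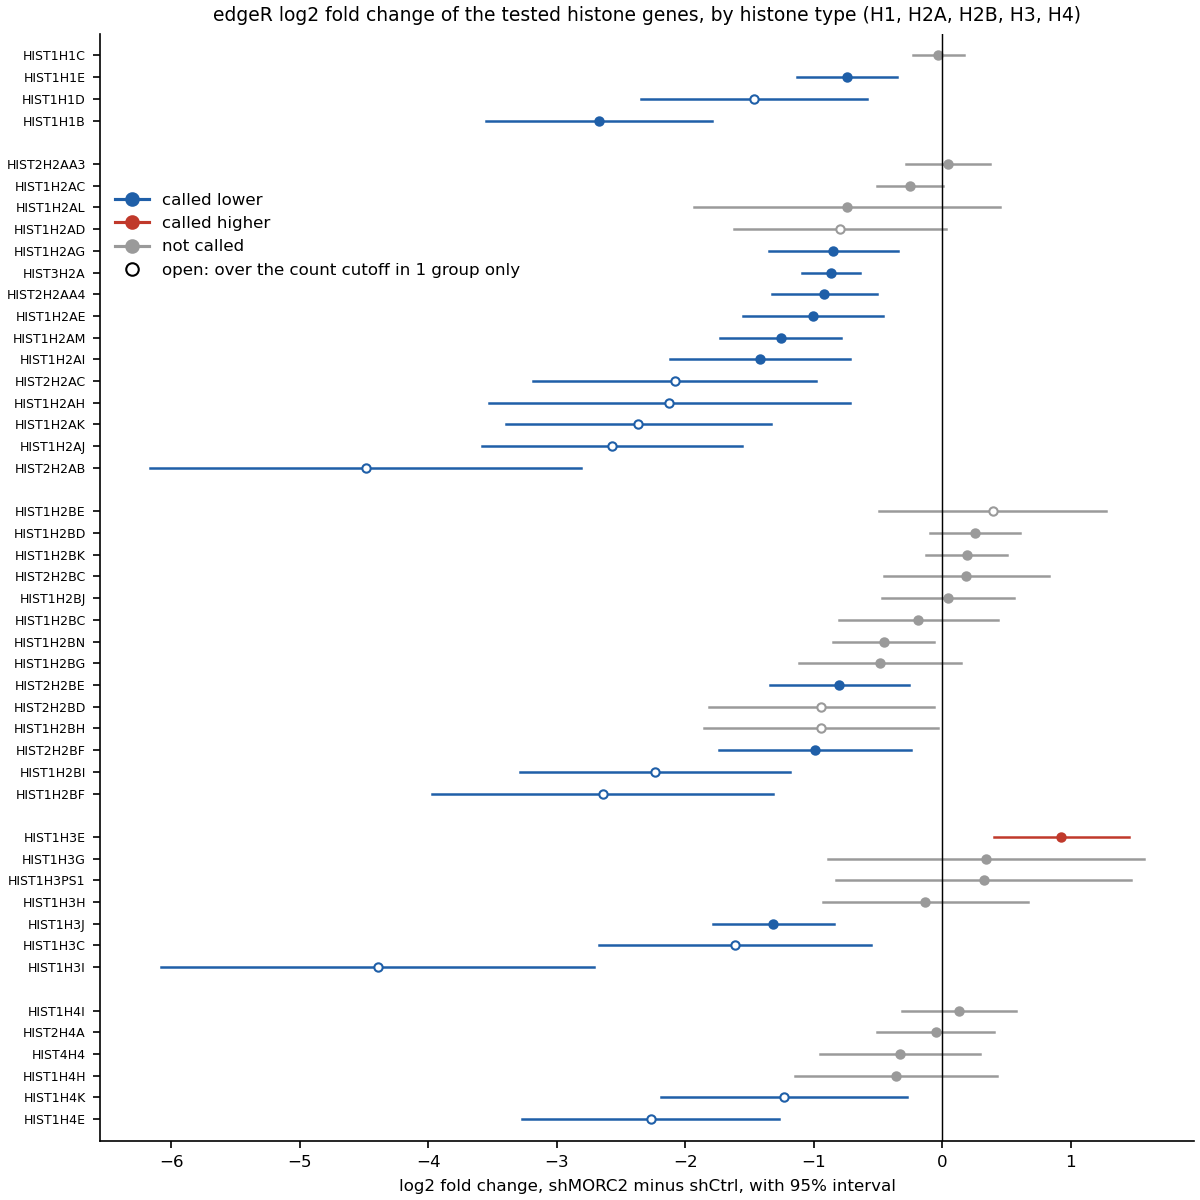
Each point is the edgeR log2 fold change (shMORC2 minus shCtrl) of 1 tested histone gene with its 95% interval, grouped by histone type. Filled points passed the count cutoff in both groups and open points in 1 group only. The lowest points are HIST2H2AB at -4.49 and HIST1H3I at -4.39, both open, and the only gene called higher is HIST1H3E at 0.93.

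The H1 genes, which encode the linker histones, divided into 1 abundant gene that was not called and 3 that fell. HIST1H1C (H1-2), the most abundant H1 gene of the set, was at 26.2, 27.3 and 23.3 CPM in shCtrl and at 23.1, 25.3 and 26.7 CPM in shMORC2. The groups overlapped, and the 95% interval of the log2 fold change ran from -0.23 to 0.17. HIST1H1B (H1-5) was at 3.60, 4.59 and 1.34 CPM in shCtrl and at 0.676, 0.480 and 0.329 CPM in shMORC2. Every shMORC2 library was below the lowest control, shCtrl replicate 3, and the log2 fold change of -2.67, with an SE of 0.408 and an edgeR adjusted p of 0.000227, was the largest of the tested H1 genes. HIST1H1E (H1-4) fell from 3.47, 4.30 and 3.21 CPM to 2.52, 2.16 and 1.88 CPM, a log2 fold change of -0.74 with an SE of 0.181 (edgeR adjusted p 0.00561). HIST1H1D (H1-3) fell from 0.730, 0.804 and 0.924 CPM to 0.496, 0.240 and 0.141 CPM (log2 fold change -1.47, edgeR adjusted p 0.0117), but the call was lost without shMORC2 replicate 2 (adjusted p 0.0544) or replicate 3 (adjusted p 0.0591), and its log2 fold change reached -2.09 without replicate 1. HIST1H1A (H1-1), too low for the test, had 26, 32 and 0 counts in shCtrl and 0 counts in each shMORC2 library. Leaving HIST1H1C aside, the H1 genes summed to 8.56, 10.6 and 5.62 CPM in shCtrl and to 3.90, 2.93 and 2.40 CPM in shMORC2, a log2 ratio of -1.42 against -0.27 with it.

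The H2A genes carried most of the difference. Of 22 genes 15 were tested, 11 were called lower and 4 were not called, beside 19.6% of all tested genes called lower. HIST3H2A (H2AC25; chromosome 1, 228456979 to 228457873, minus strand, GRCh38) was the most abundant histone gene per kilobase of exon in shCtrl, at 52.1 CPM per kilobase, and was next after HIST1H1C in shMORC2 at 28.6 CPM per kilobase. It stood at 41.9, 45.8 and 52.3 CPM in shCtrl replicates 1, 2 and 3 and at 22.7, 25.3 and 28.8 CPM in shMORC2. In both groups replicate 3 was the highest, and the highest shMORC2 library remained well below the lowest control. Its level in shMORC2 was 54.9% of that in shCtrl, for a log2 fold change of -0.87 with an SE of 0.105 (edgeR adjusted p 3.88e-05).

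The second most abundant H2A gene behaved otherwise. HIST1H2AC (H2AC6) was at 10.02, 9.60 and 11.99 CPM in shCtrl and at 9.47, 7.95 and 9.09 CPM in shMORC2, each below all controls. Its log2 fold change of -0.25 was not called (edgeR adjusted p 0.112), though it was with the replicate number as a block (edgeR adjusted p 0.0453). HIST2H2AA3 and HIST2H2AA4 (H2AC18 and H2AC19) are near-identical copies: 100% of the 50-base exon windows of the former occur in another histone gene of the set and 97.1% of those of the latter. The count table gave HIST2H2AA4 at 2.94, 2.51 and 2.31 CPM in shCtrl and 1.38, 1.30 and 1.43 CPM in shMORC2 (log2 fold change -0.92, edgeR adjusted p 0.00191) and left HIST2H2AA3 uncalled at a log2 fold change of 0.044. Since the division of reads between the copies is uncertain, their sum is the safer value. It was 5.86, 5.93 and 5.93 CPM in shCtrl and 4.67, 4.76 and 4.95 CPM in shMORC2, a log2 ratio of -0.30.

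Among the H2A genes of lower level, HIST1H2AG (H2AC11) was at 2.30, 1.96 and 1.56 CPM in shCtrl and at 1.29, 0.913 and 1.03 CPM in shMORC2. Its groups did not overlap (log2 fold change -0.85 with an SE of 0.232, edgeR adjusted p 0.0109). HIST1H2AJ (H2AC14) was at 1.46, 1.30 and 0.584 CPM in shCtrl and at 0.316, 0.0961 and 0.141 CPM in shMORC2. It had the largest fall of the tested HIST1 H2A genes (log2 fold change -2.57 with an SE of 0.470, edgeR adjusted p 0.000846), and shCtrl replicate 3 again stood below the other controls. Without shMORC2 replicate 1 its log2 fold change was -3.20. Of its 50-base exon windows 83.7% are shared, mostly with HIST1H2AI, and 62.3% of those of HIST1H2AI are shared, mostly with HIST1H2AJ, so the division of reads between this pair is uncertain too. Their sum was 2.65, 2.34 and 1.60 CPM in shCtrl and 0.879, 0.3603 and 0.517 CPM in shMORC2, a log2 ratio of -1.91. HIST1H2AI, HIST1H2AE, HIST1H2AK and HIST1H2AH were also called lower, with log2 fold changes from -1.01 to -2.36. The call of HIST1H2AH was lost without replicate 2 of shCtrl and without replicate 2 or 3 of shMORC2 (adjusted p 0.0619 to 0.0798), and its log2 fold change of -2.13 ran from -1.57 to -3.05 over the libraries left out. HIST1H2AK lies on the other strand inside an exon of HIST1H2BN, and with the strand setting of the counting not given, their reads may not be separable. HIST1H2AD and HIST1H2AL were not called, at -0.80 and -0.74.

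The HIST2 cluster on chromosome 1 held the H2A genes with the steepest and the most unequal values. HIST2H2AB (H2AC21) was at 0.251, 0.544 and 0.973 CPM in shCtrl and at 0.0225, 0.0480 and 0 CPM in shMORC2. Over the group this was 74 counts against 3, a ratio of 24.9 (95% counting interval 8.20 to 124), with a fitted log2 fold change of -4.49 (edgeR adjusted p 0.000586) that moved to -5.35 without shMORC2 replicate 2 and to -3.92 without shCtrl replicate 3. HIST2H2AC (H2AC20) was at 0.274, 0.520 and 0.827 CPM in shCtrl and at 0.0902, 0.144 and 0.141 CPM in shMORC2 (log2 fold change -2.08, edgeR adjusted p 0.00583). In both of these genes shCtrl replicate 3 was the highest control, the opposite of HIST1H1B and HIST1H2AJ. HIST2H2AB and HIST2H2AC passed the filter on shCtrl alone, so they had to be lower in shMORC2 to be so placed. The counting interval pools libraries and leaves out their spread, with 11, 23 and 40 counts of HIST2H2AB in shCtrl. HIST2H2AB overlaps BOLA1 on the other strand.

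**Figure D3:**
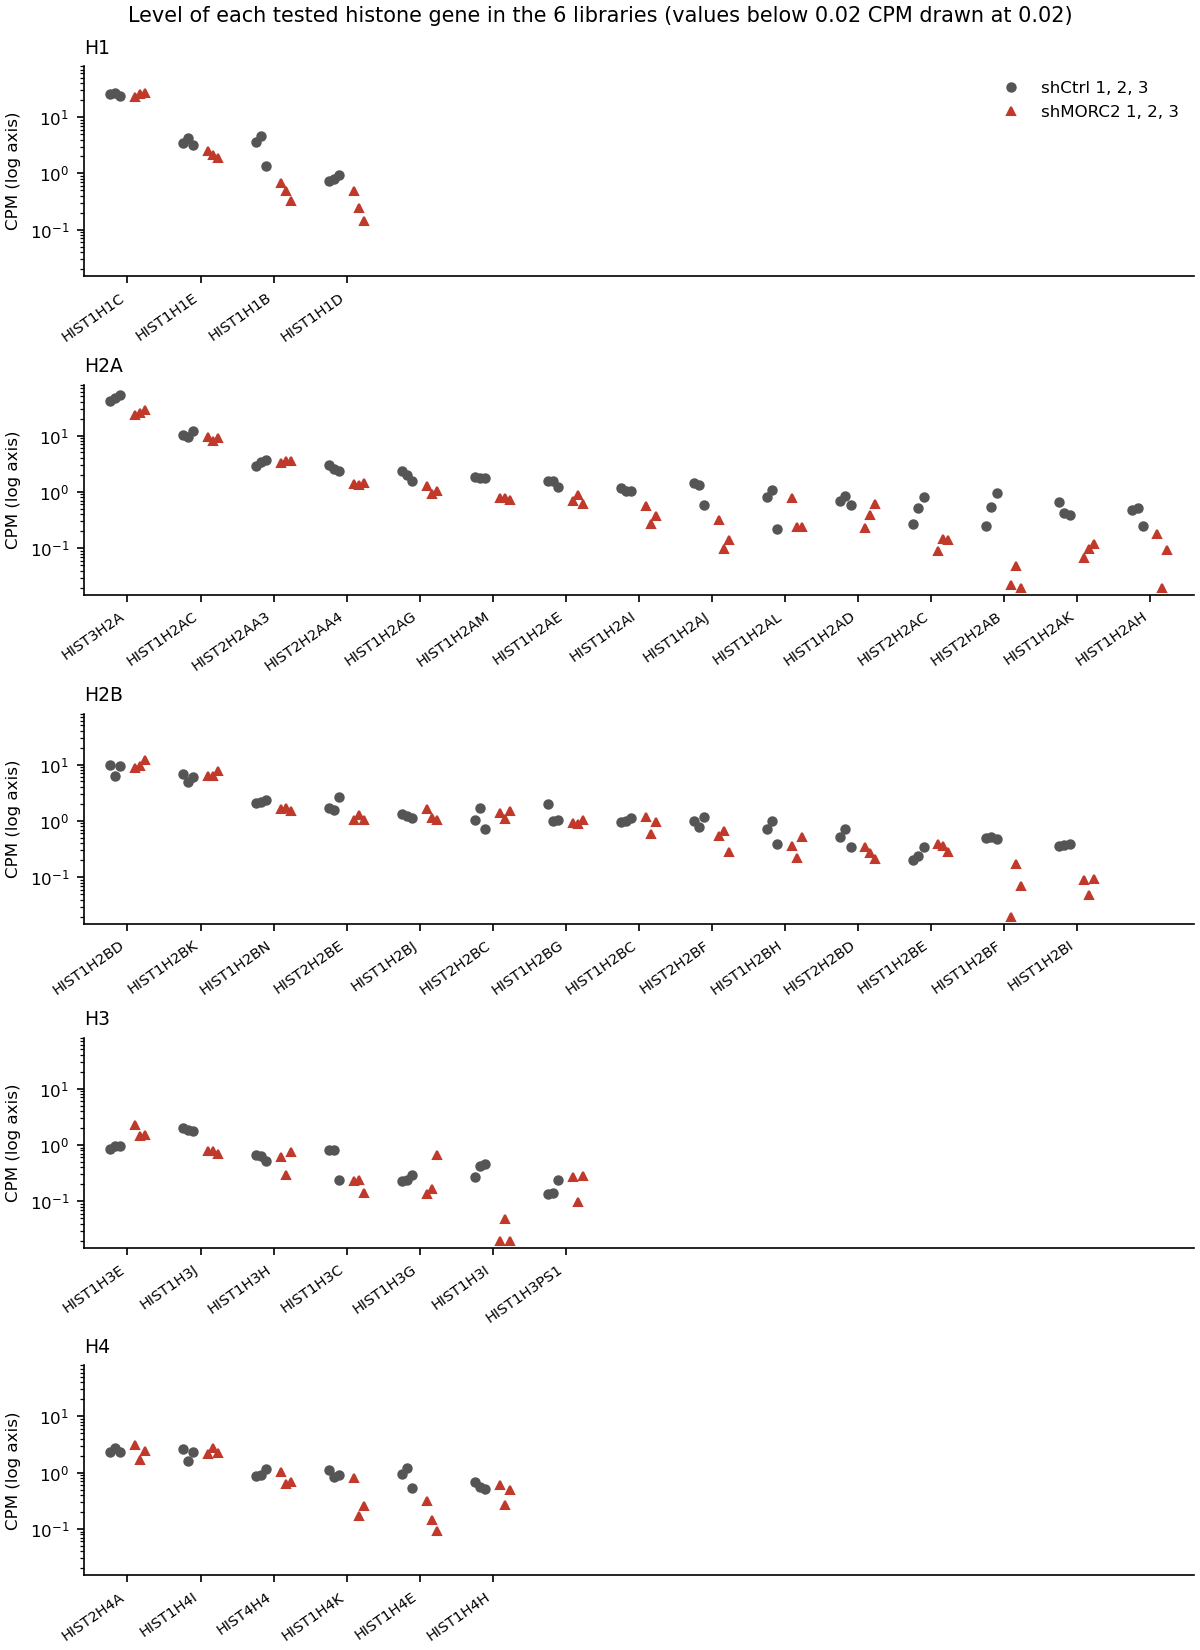
CPM on a log axis of each tested histone gene in the 3 shCtrl libraries (circles) and the 3 shMORC2 libraries (triangles), in 1 panel per histone type and ordered by mean level. HIST3H2A, at 41.9 to 52.3 CPM in shCtrl, and HIST1H1C stand above all others, and the separation of the groups is wider among the low genes at the right of the H2A panel than among the abundant H2B genes.

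By summed level the H2B genes differed least between the groups. Their sum was 29.6, 24.6 and 28.0 CPM in shCtrl and 24.8, 24.3 and 28.4 CPM in shMORC2, so the groups overlapped and the log2 ratio was -0.085. The most abundant, HIST1H2BD (H2BC5), was at 9.70, 6.38 and 9.24 CPM in shCtrl and at 8.79, 9.25 and 12.1 CPM in shMORC2. HIST1H2BK (H2BC12) was at 6.75, 4.80 and 6.05 CPM in shCtrl and at 6.33, 6.22 and 7.54 CPM in shMORC2. The groups overlapped for both, with log2 fold changes of 0.25 and 0.19 (edgeR adjusted p 0.243 and 0.326). Without this pair, removed after their values were seen, the H2B sum was 13.2, 13.4 and 12.7 CPM in shCtrl and 9.67, 8.82 and 8.76 CPM in shMORC2. By the median log2 fold change of the tested genes the order of the types was another, at -0.13 for H3, -0.35 for H4, -0.47 for H2B, -1.01 for H2A and -1.10 for H1.

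Of 26 H2B genes 14 were tested and 4 were called lower, beside 19.6% of all tested genes. HIST2H2BE (H2BC21) was at 1.67, 1.56 and 2.65 CPM in shCtrl and at 1.04, 1.30 and 1.03 CPM in shMORC2 (log2 fold change -0.80 with an SE of 0.249, edgeR adjusted p 0.0213). The control range was set by shCtrl replicate 3, and without it the log2 fold change was -0.52 (adjusted p 0.140). The call also failed without shMORC2 replicate 3 (adjusted p 0.0785). HIST2H2BF (H2BC18) fell from 1.004, 0.780 and 1.19 CPM to 0.541, 0.673 and 0.282 CPM (log2 fold change -0.99 with an SE of 0.346, edgeR adjusted p 0.0365). That call was lost without shCtrl replicate 1 or 3, without shMORC2 replicate 3 and in DESeq2 (adjusted p 0.0653 to 0.136), and the gene overlaps FCGR1A on the other strand. HIST1H2BF (H2BC7) was at 0.502, 0.520 and 0.486 CPM in shCtrl and at 0, 0.168 and 0.0704 CPM in shMORC2 (log2 fold change -2.64 with an SE of 0.615, edgeR adjusted p 0.00423), and the log2 fold change was -3.75 without shMORC2 replicate 2 and -2.05 without shMORC2 replicate 1. HIST1H2BI (H2BC10) was similar, at 0.365 to 0.389 CPM in shCtrl and at 0.0480 to 0.0939 CPM in shMORC2 (log2 fold change -2.24, edgeR adjusted p 0.00284).

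H3 genes included the only call in the upward direction. HIST1H3E (H3C6; chromosome 6, 26224199 to 26227473, plus strand, GRCh38) was at 0.844, 0.946 and 0.948 CPM in shCtrl and at 2.25, 1.44 and 1.503 CPM in shMORC2. All shMORC2 libraries were above all controls (log2 fold change 0.93 with an SE of 0.245, edgeR adjusted p 0.00900), and without shMORC2 replicate 1, the highest, the log2 fold change was 0.69 (adjusted p 0.0455). HIST1H3C (H3C3) was at 0.821, 0.804 and 0.243 CPM in shCtrl and at 0.225, 0.240 and 0.141 CPM in shMORC2. The lowest control and the highest shMORC2 library differed by little, and the call (log2 fold change -1.61 with an SE of 0.490, edgeR adjusted p 0.0188) was lost without replicate 1 or 2 of shCtrl and without replicate 3 of shMORC2 (adjusted p 0.0672 to 0.0853). HIST1H3I (H3C11) had 49 counts over the shCtrl libraries and 2 over the shMORC2 libraries, a ratio of 24.8 (95% counting interval 6.497 to 210.1), with an edgeR adjusted p of 0.000695. Its fitted log2 fold change of -4.39 became -7.06 without shMORC2 replicate 2, which held both counts. HIST1H3I also passed the filter on shCtrl alone.

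HIST1H3J (H3C12) was called lower at a log2 fold change of -1.31 with an SE of 0.218 (edgeR adjusted p 0.000414), and the H2A gene HIST1H2AM (H2AC17) at -1.26 (SE 0.219, edgeR adjusted p 0.000601). They are not separate observations. Both lie on the minus strand and overlap, and their counts were 86 and 82, 78 and 75, and 73 and 71 in the shCtrl libraries and 34 and 34, 32 and 32, and 30 and 30 in the shMORC2 libraries. The H3 genes HIST2H3A and HIST2H3C, whose exon windows are all shared with another histone gene, and HIST2H3D were below the filter. Their sum was 0.570, 0.757 and 1.39 CPM in shCtrl and 0.451, 0.288 and 0.258 CPM in shMORC2. No H3 gene outside the HIST1 cluster was tested.

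Of the 16 H4 genes 6 were tested and 2 were called lower, beside 19.6% of all tested genes. HIST1H4E (H4C5) was at 0.958, 1.23 and 0.535 CPM in shCtrl and at 0.316, 0.144 and 0.0939 CPM in shMORC2. Its groups were apart (log2 fold change -2.27 with an SE of 0.464, edgeR adjusted p 0.00183), and without shMORC2 replicate 1 the log2 fold change was -2.90. HIST1H4K (H4C12) was at 1.12, 0.851 and 0.924 CPM in shCtrl and at 0.789, 0.168 and 0.258 CPM in shMORC2 (log2 fold change -1.23 with an SE of 0.444, edgeR adjusted p 0.0413). The call was lost without any 1 of the libraries other than shMORC2 replicate 1 (adjusted p 0.0735 to 0.158), without that library the log2 fold change was -2.16, and 100% of its 50-base exon windows occur in another histone gene, most of them in HIST1H4J. The more abundant H4 genes were not called: HIST2H4A, a copy of HIST2H4B, was at 2.35, 2.79 and 2.36 CPM in shCtrl and at 3.07, 1.71 and 2.44 CPM in shMORC2, and HIST1H4I had a log2 fold change of 0.13. HIST4H4, the single gene of its cluster, was at 0.867, 0.899 and 1.17 CPM in shCtrl and at 1.01, 0.625 and 0.681 CPM in shMORC2.

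By cluster, the log2 ratio of the sums was -0.30 for HIST1, -0.48 for HIST2, -0.86 for HIST3 and -0.34 for HIST4. The last 2 values each rest on 1 gene. HIST3H2A, the only 1 of 4 HIST3 genes tested, held 46.7 of 46.8 CPM of the mean HIST3 sum in shCtrl. HIST4H4 is alone in its cluster and was not called (edgeR adjusted p 0.388). HIST1 occupies 2168 kb of chromosome 6, apart from the pseudogenes HIST1H2BPS3 and HIST1H2APS6 on chromosome 13, which enter only the counts and sums of all 67. HIST2 lies on chromosome 1, and both clusters held called and uncalled genes side by side. In HIST1, 35 of 67 genes were tested, 17 called lower and 1 higher. In HIST2, 9 of 17 were tested and 5 called lower. The share called lower over all tested genes was 19.6%, to be set beside these counts and those of the parts of HIST1. Of the tested genes, 12 of the 35 in HIST1 and 3 of the 9 in HIST2 had passed the filter on shCtrl alone. HIST1 forms separate groups of genes along the chromosome. In the group at the lower coordinates 19 of 42 genes were tested and 7 called lower, with a log2 ratio of the sums of -0.18. In the groups beyond the long gap that follows, 16 of 23 were tested and 10 called lower, with a log2 ratio of -0.63. Of the tested genes, 7 of the 19 and 5 of the 16 had passed the filter on shCtrl alone. The difference between these parts of the cluster was not tested. HIST1H1C, the uncalled abundant H1 gene, belongs to the former and HIST1H1B to the latter.

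Genes that are not histones but lie between the first and last HIST1 gene are given beside them. Of 61 such genes 25 were tested, 1 was called lower (BTN3A3, log2 fold change -0.45, edgeR adjusted p 0.0137) and 3 higher (BTN2A2 at 0.52, ABT1 at 0.46 and HMGN4 at 0.23). Over all tested genes 19.6% were called lower and 19.9% higher. With the replicate number as a block, which called 10287 of all 21005 tested genes in place of 8301, 3 were called lower, and 2 without each of shCtrl replicates 1 and 3 and shMORC2 replicate 1. Their summed level was 331 to 344 CPM in shCtrl and 365 to 379 CPM in shMORC2. The sum of the neighbours was thus higher in every shMORC2 library, where the histone sum was lower. Mean CPM in shCtrl and shMORC2 was 90.7 and 106.7 for HMGN4, 42.2 and 58.005 for ABT1, and 21.6 and 30.99 for BTN2A2. For BTN3A3, called lower, it was 6.83 and 4.99. The sum without the 3 genes called higher was not taken, so the rise of the sum may rest on them. The plot along the cluster shows fold changes of single genes and no sums.

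**Figure D4:**
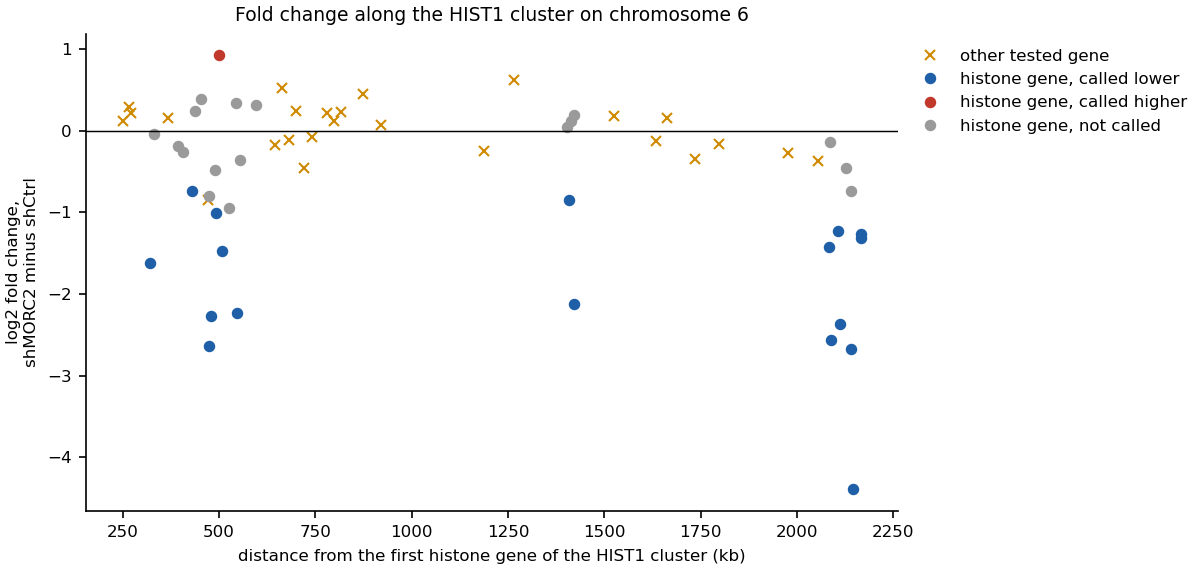
Log2 fold change (shMORC2 minus shCtrl) of each tested gene in the HIST1 cluster against its distance in kb from the first histone gene of the cluster. Circles are histone genes, coloured by their call, and crosses are other genes. Called and uncalled histone genes stand side by side in each group of genes, down to -4.39 for HIST1H3I. Of the 25 other genes 1 was called lower and 3 higher.

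The annotated 3′ end, which the choice of genes did not use, separated the genes by their median but not by their summed level. Of the 70 coding genes, 34 had a model in the count table that ends exactly at the stop codon, before the stem-loop, and 36 had a model that runs past it. Among genes whose model ends at the stop codon 17 were tested and 13 called lower, with a median log2 fold change of -1.61. Among those whose model runs past it 26 were tested, 10 called lower and 1 higher, with a median of -0.41. The shares over all tested genes were 19.6% lower and 19.9% higher. The filter bears on this comparison, since 11 of the 17 but 3 of the 26 passed on shCtrl alone. Restricted to genes that passed on both groups, 3 of 6 were called lower with a median of -1.0 and 8 of 22 with a median of -0.35. The 3 were HIST1H1B and the overlapping pair HIST1H3J and HIST1H2AM, and with the pair counted once 2 of 5 were called and the median was -0.74. The means point the same way with no filter, because 30 of the 32 genes of the shorter kind that had a count were lower in shMORC2, and 28 of the 36 of the longer kind.

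The sums did not follow the medians. Genes whose model ends at the stop codon summed to 50.9, 52.2 and 42.0 CPM in shCtrl and to 35.4, 35.6 and 38.5 CPM in shMORC2, a log2 ratio of -0.41. Genes whose model runs past it summed to 96.9, 96.5 and 107.7 CPM in shCtrl and to 69.0, 66.6 and 74.96 CPM in shMORC2, a log2 ratio of -0.52. Past the filter on both groups these log2 ratios were -0.19 and -0.49. The abundant genes HIST1H1C and HIST1H2BK, neither of them called, are of the shorter kind, and HIST3H2A, called lower, is of the longer kind. A polyadenylation signal, AATAAA or ATTAAA within the last 50 bases of the model, was present in 19 of the 70 coding genes and in 40.3% of 56093 genes of the table. Of these 19 genes 16 were tested, 5 called lower and 1, HIST1H3E, higher, with a median log2 fold change of -0.22. Of the 51 without such a signal 27 were tested and 18 called lower, with a median of -1.26. The share called lower over all tested genes was 19.6%. Restricted again to genes past the filter on both groups, the medians were -0.19 over 13 genes and -0.74 over 15. The log2 ratios of the sums had the other order, at -0.52 with the signal and -0.43 without it, and at -0.50 and -0.27 past the filter on both groups. HIST3H2A has the signal, and HIST1H1B, HIST1H2AJ and HIST1H3I do not. These medians are descriptions of genes in the same 6 libraries and no test was made of them.

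**Figure D5:**
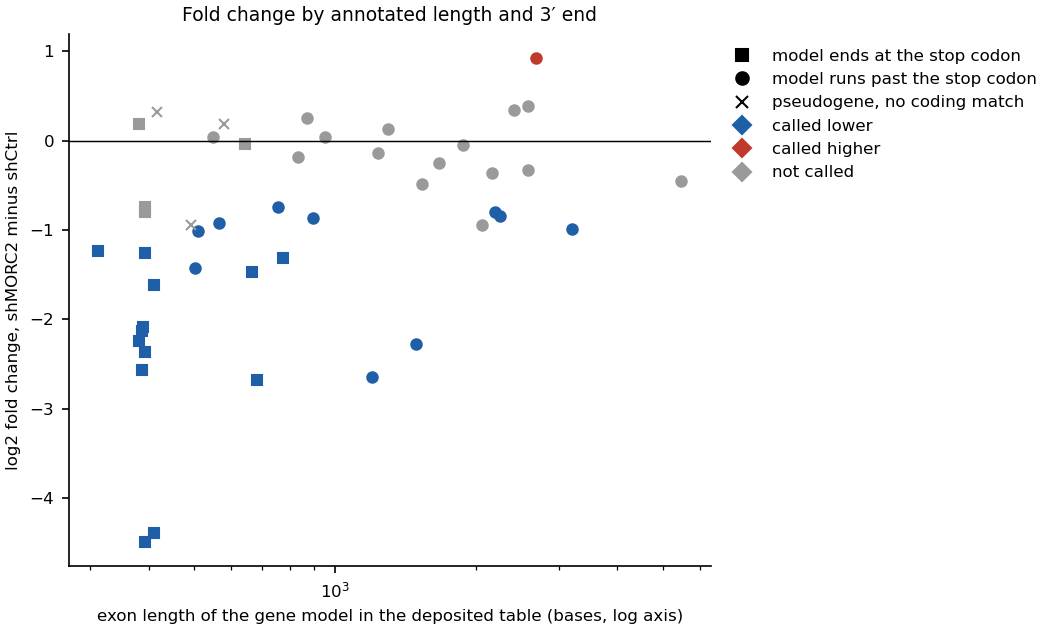
Log2 fold change (shMORC2 minus shCtrl) of each tested histone gene against the exon length of its model in bases, on a log axis. Squares are models that end at the stop codon, circles models that run past it and crosses pseudogenes, coloured by call. Most squares lie below -1, with HIST2H2AB at -4.49, whereas most circles lie between -1 and 0.4.

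The genes below the filter leaned the same way as a group. The 43 untested histone genes received 184, 223 and 131 counts in the shCtrl libraries and 56, 53 and 46 counts in the shMORC2 libraries. Of the 33 with a count 30 had a lower mean in shMORC2. Over all genes with a count, tested or not, 51.9% had a lower mean, and the share over untested genes alone was not taken. Being selected for low counts, they carry little weight one by one. HIST1H4L (H4C13), for example, had 12, 22 and 0 counts in shCtrl and 0, 0 and 2 in shMORC2. HIST1H2AB had 18, 16 and 6 counts in shCtrl and 0, 0 and 2 in shMORC2.

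Promoters are shown for the gene that set the sum, for a divergent pair that was called lower on both sides, and for the gene that was called higher. RefSeq promoters (GRCh38.p14, 250 bases before to 50 after the start) were matched for 60 of the 89 genes. Capitals mark the CCAAT motif, the TATA box letters TATAAA and the octamer ATTTGCAT, searched on both strands with overlapping matches marked together. HIST2H2AC and HIST2H2BE share 1 intergenic stretch, and the window shown for HIST2H2AC spans most of it. The HIST1H3E window lies at the start of the long model of that gene. It ends at 26224227, far upstream of the stem-loop at 26225591 to 26225616, and need not be the promoter next to the coding sequence.
HIST3H2A (chr1:228457824-228458123, minus strand): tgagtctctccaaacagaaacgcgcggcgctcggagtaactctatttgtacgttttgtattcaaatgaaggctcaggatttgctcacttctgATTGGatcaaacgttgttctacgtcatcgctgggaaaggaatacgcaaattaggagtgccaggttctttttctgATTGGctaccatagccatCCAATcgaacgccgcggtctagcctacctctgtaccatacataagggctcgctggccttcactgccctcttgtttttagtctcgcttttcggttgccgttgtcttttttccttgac
HIST2H2AC (chr1:149886668-149886967, plus strand): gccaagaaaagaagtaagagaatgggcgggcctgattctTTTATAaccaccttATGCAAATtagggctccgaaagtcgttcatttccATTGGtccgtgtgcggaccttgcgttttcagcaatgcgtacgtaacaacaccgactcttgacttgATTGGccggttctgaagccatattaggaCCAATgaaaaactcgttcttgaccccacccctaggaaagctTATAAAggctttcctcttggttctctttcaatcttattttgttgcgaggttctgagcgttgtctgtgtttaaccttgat
HIST1H3E (chr6:26223928-26224227, plus strand): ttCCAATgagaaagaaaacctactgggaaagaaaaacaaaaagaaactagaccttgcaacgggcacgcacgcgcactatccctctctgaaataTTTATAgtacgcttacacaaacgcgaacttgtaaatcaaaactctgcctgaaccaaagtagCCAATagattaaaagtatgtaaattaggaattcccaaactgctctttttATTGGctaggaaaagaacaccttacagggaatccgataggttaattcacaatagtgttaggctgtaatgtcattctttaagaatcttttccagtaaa
CCAAT was present in 51 of the 60 histone promoters (85.0%), compared with 35.7% of 27305 RefSeq promoters. All 6 H1, 16 H2A, 15 H2B and 12 H3 promoters held it but 2 of 11 H4 promoters did. TATAAA was present in 71.7% of histone promoters and 12% of all promoters. The octamer was found in 11 of 16 H2A and 12 of 15 H2B promoters and in 0 of the H1, H3 and H4 promoters, compared with 1.80% of all promoters. HIST3H2A, the most abundant gene, had 3 CCAAT matches and neither of the other motifs. The octamer was thus frequent in both the H2A and the H2B promoters. HIST3H2A and HIST1H2BD, the most abundant genes of these types, lacked it. Whether genes with and without the octamer differed between the groups was not tested.

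The factors that make and process histone mRNA were read from a list of 35 genes, all tested. Of these 10 were called lower and 9 higher, beside 19.6% and 19.9% of all tested genes, with a median log2 fold change of -0.047. The count lower was 6 without shCtrl replicate 2, 5 without shMORC2 replicate 2 and 4 without shMORC2 replicate 3. SLBP, which binds the stem-loop, was at 93.8, 73.6 and 76.6 CPM in shCtrl and at 67.9, 57.4 and 60.7 CPM in shMORC2. All shMORC2 libraries lay below the controls (log2 fold change -0.39 with an SE of 0.0996, edgeR adjusted p 0.00714). LSM11, a protein of the U7 particle, fell from 3.79, 4.45 and 3.65 CPM to 1.87, 2.74 and 2.35 CPM (log2 fold change -0.77 with an SE of 0.178, edgeR adjusted p 0.00392). NPAT, the coactivator of histone transcription at S phase, was at 15.2, 13.0 and 10.7 CPM in shCtrl and at 10.8, 8.96 and 8.92 CPM in shMORC2. Its call (log2 fold change -0.44 with an SE of 0.135, edgeR adjusted p 0.0202) was lost without shCtrl replicate 1 or 2 or shMORC2 replicate 2 or 3 (adjusted p 0.0545 to 0.0890).

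The other named factors were not called. CASP8AP2 (FLASH), which acts with the U7 particle, had a log2 fold change of -0.42 (edgeR adjusted p 0.0800), and was called with the replicate number as a block (adjusted p 2.34e-05) and without shMORC2 replicate 1 (log2 fold change -0.72). HINFP, the transcription factor of H4 genes, was at -0.069, ZNF473 at -0.17, LSM10 at 0.14 and the exonuclease gene ERI1 at 0.077. The U7 RNA gene RNU7-1 was at 0.80, 0.92 and 0.80 CPM in shCtrl and at 0.86, 1.13 and 1.43 CPM in shMORC2, which overlap.

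Histone genes outside the 4 named series, most of which give polyadenylated transcripts and do not depend on S phase, went in both directions. Of 21 such genes 13 were tested, 4 called lower and 5 higher, beside 19.6% and 19.9% of all tested genes, with a median log2 fold change of 0.16. The count higher was 3 without each of shCtrl replicates 2 and 3 and shMORC2 replicate 3. The linker histone genes H1F0 and H1FX fell, H1F0 from 1252, 1524 and 1445 CPM to 976, 1134 and 1143 CPM (log2 fold change -0.38, edgeR adjusted p 0.00619) and H1FX by 0.79 on the log2 scale (adjusted p 0.000102). The centromeric H3 gene CENPA fell by 0.84 (adjusted p 0.000172) and HILS1 by 0.66 (adjusted p 0.00318). The H3.3 gene H3F3A rose by 0.41 (adjusted p 0.000583), and H2AFV by 0.39, H2AFY by 0.32, H3F3C by 0.67 and H2AFY2 by 0.23, the last of these with an adjusted p of 0.0441 that was lost without TMM scaling (0.0627), without the filter (0.0602), without shCtrl replicate 2 or 3 and without shMORC2 replicate 1 or 3 (0.0724 to 0.170). H3F3C was also lost without shCtrl replicate 2 or 3 or shMORC2 replicate 3 (0.0619 to 0.0838). H1F0 alone was thus far more abundant in these libraries, at 600 CPM per kilobase in shCtrl, than HIST3H2A at 52.1 CPM per kilobase.

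Markers of the cell cycle are given beside the histone genes because the latter follow S phase. Over all tested genes 19.6% were called lower and 19.9% higher, the shares to set beside each list given here. Of 42 S-phase genes tested 5 were called lower and 7 higher (median log2 fold change 0.034). Those called higher with the largest fold changes were RFC2 of the clamp loader at 0.65, GINS2 of the replicative helicase at 0.59 and RRM2 of ribonucleotide reductase at 0.59, and those called lower were SLBP at -0.39, DSCC1 at -0.34, CDCA7 at -0.30, POLD3 at -0.29 and RPA2 at -0.23. With the replicate number as a block 9 were called lower and 14 higher. The count lower was 9 without shMORC2 replicate 1 and 1 without each of shCtrl replicates 1 and 3 and shMORC2 replicates 2 and 3, and the count higher was 14 without shCtrl replicate 1 and 2 without shCtrl replicate 2. Of 54 genes of G2 and mitosis 17 were called lower and 4 higher (26 and 8 with the block, median log2 fold change -0.12), and the count higher was 2 without each of shCtrl replicate 2 and shMORC2 replicates 2 and 3. Of 19 histone chaperone genes 3 were called lower and 3 higher (4 and 6 with the block). The summed level of the S-phase list was 2755, 2177 and 2376 CPM in shCtrl replicates 1, 2 and 3 and 2775, 2296 and 2425 CPM in shMORC2. Its groups overlapped, though each shMORC2 value was above the shCtrl value of the same replicate number. The part of the cell cycle in the histone values was not tested.

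Other RNA without a poly(A) tail also had lower sums in shMORC2. 7SK and 7SL were far higher in shCtrl replicate 3, where the histone sum was 151.3 CPM, beside 149.8 and 151.6 CPM in replicates 1 and 2. Its parts moved in opposite directions over shCtrl replicates 1, 2 and 3. HIST3H2A was at 41.9, 45.8 and 52.3 CPM, and the other histone genes summed to 107.9, 105.8 and 98.9 CPM. 7SK and its copies summed to 17.4 to 282 CPM in shCtrl and 8.89 to 9.25 CPM in shMORC2, 7SL and its copies to 66.7 to 197 and 18.2 to 22.5 CPM, and small nucleolar RNA genes to 120.0 to 180.0 and 85.6 to 94.6 CPM. Small nuclear RNA genes lay closer together, at 18.9 to 20.8 CPM in shCtrl and 15.7 to 18.6 CPM in shMORC2. The mitochondrial ribosomal RNAs, which carry short tails, were at 21121 to 24770 and 11590 to 15017 CPM. Without shCtrl replicate 3, where 7SK and 7SL were highest, the log2 ratio was -0.98 for 7SK, -1.71 for 7SL and -0.47 for the histone sum. In that library 20 of the 35 tested HIST1 genes had their lowest control value and 10 their highest, whereas for HIST2 these were 3 and 5 of 9. How well each library retained RNA without a tail, and its part in the histone values, was not tested.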

How the data were processed

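mRNA of SW480 cells was sequenced in 3 shCtrl and 3 shMORC2 libraries by UID-mRNA-seq with a stranded kit. The deposited count table holds the authors' unnormalized read counts, 1 row per gene symbol, and the submitters' processing notes name Trimmomatic 0.36, STAR 2.5.3a, featureCounts of Subread 1.5.1 and edgeR 3.12.1. The annotation release, the strand setting, the treatment of multi-mapped reads and whether molecular identifiers were collapsed are not given in the sources used here. The deposited RPKM table and the rMATS splicing tables, which hold the authors' own comparison, were not used. GENCODE v44 (GRCh38) names 33560 of the genes exactly once, and 99.97% of these overlapped the position in the table, so coordinates were read as GRCh38. The count table had 0 columns of samples outside the series.

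All 6 libraries entered 1 edgeR fit (version 4.0.16, R 4.3.3) with filterByExpr, TMM, glmQLFit and glmQLFTest and group as the only term, with Benjamini-Hochberg adjustment over 21005 genes. The SE is the size of the log2 fold change over the square root of F. Intervals are 95% intervals from the same fit. CPM used TMM-scaled library sizes, and sums were given with no test. Precision rests on 42092664 to 43434425 counts per library, with 3 counts as the floor. The test was tested on simulated data. Genes named with full statistics were, in each histone type, the 3 called members with the highest mean CPM, the extremes among called members of 100 or more counts on average, and each member called higher. Any other member could be named. The members, gene lists and tests were chosen with earlier results of these data known. The alternatives were DESeq2 1.42.0, no TMM, library sizes without mitochondrial, 7SK, 7SL and ribosomal DNA genes, no filter, a mean of at least 50 counts, an adjusted p under 0.01, the replicate number as a block, and leaving out each library. Sequence features were read with Python 3.11.15 and pysam 0.24.0 from GRCh38, GENCODE v44 and RefSeq promoters.

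Deviations from the group means were correlated between libraries of equal replicate number (Pearson correlation of log2(CPM + 1) deviations 0.386, 0.193 and 0.181 for replicates 1, 2 and 3). The numbers were taken to pair the libraries on these values alone, since no label says what a number stands for. Within-group chi-square values per degree of freedom ran from 6.83 to 23.9, so that no pair of libraries agreed within sampling noise.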

Additional observations from a re-analysis of the deposited data

How the results depend on the processing

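Of 23 histone genes called lower, 20 to 27 were called lower when a library was left out, 24 with DESeq2, 24 with the replicate block, 28 with no filter and 16 at an adjusted p under 0.01. Of the original 23, 17 to 23 were still called when a library was left out, 22 with DESeq2 and 23 with the block. Requiring a mean of at least 50 counts left 19 histone genes to test, of which 8 were called lower, because fewer genes were tested. The count called higher was 1 under every alternative run. Apart from the calls of HIST1H2AC and CASP8AP2 and the list counts given above, the replicate block changed no call of a replication-dependent histone gene or named factor. It called more genes over the whole table, 10287 of 21005 in place of 8301, and likewise in the lists: 5 replication-independent histone genes lower and 7 higher, 6 chaperones higher, 9 S-phase genes lower and 14 higher, 26 genes of G2 and mitosis lower and 8 higher, and 3 other genes of the HIST1 span lower, a count also given by no filter. With a library left out, 3 to 6 replication-independent histone genes were called higher, 4 to 10 histone mRNA factors lower, 1 to 9 S-phase genes lower and 2 to 14 higher, 2 to 6 genes of G2 and mitosis higher and 1 to 2 other genes of the HIST1 span lower.

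Without its most abundant gene the log2 ratio of a sum was -0.33 for all histone genes, -1.42 for H1, -0.62 for H2A, -0.26 for H2B, -1.04 for H3, -0.43 for HIST1, -0.67 for HIST2 and -0.56 for HIST3. No scaling moved the median of all genes by over 0.1. The direction turned with 1 library left out for genes that were never called. Over the libraries left out, the log2 fold change ran from -0.27 to 0.14 for HIST2H4A (0.031 without shCtrl replicate 2), -0.044 to 0.11 for HIST2H2AA3, -0.062 to 0.57 for HIST2H2BC, -0.091 to 0.026 for HIST1H1C, -0.43 to 0.049 for HIST1H2BC, -0.72 to 0.71 for HIST1H3G, -0.16 to 0.16 for HIST1H2BJ, -0.045 to 0.27 for HIST1H4I, -0.41 to 0.17 for HIST1H3H and -0.25 to 0.0014 for ZNF473. Depth limits the rest: most called histone genes had under 2 CPM, where 1 library can decide a call, and the cause of these shifts was not tested.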
